A study of Mus musculus with 4 samples.

Results

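The genes described here are the solute carriers (Slc genes) that move inorganic ions, sugars, phosphate, sulfate and related small anions across cell membranes. They were taken from the deposited expression table by symbol, as every gene of the families Slc2, Slc4, Slc5, Slc8, Slc9, Slc12, Slc13, Slc20, Slc26 and Slc34, which gave 82 of 38201 genes. Of these, 78 are carriers and 4 share only the start of the symbol, namely the scaffold genes Slc9a3r1 and Slc9a3r2, Slc4a1ap (kanadaptin) and the pseudogene Slc2a4rg-ps. By the nephron segment in which each carrier is best known, 18 were set apart as proximal, 3 as loop, 4 as distal and 7 as collecting duct members, while 46 carriers were left unassigned. These assignments were made by hand from textbook knowledge, and several carriers act in more than 1 segment. The tested cells came from double knockout kidneys (DKO, Esrp1 -/- and Esrp2 -/-) and the control cells from Esrp1 +/+ kidneys that also carried Esrp2 -/-, so Esrp2 was missing from both groups and the genotypes differed in Esrp1. All kidneys were taken at embryonic day 18.5 and their dissociated cells were sorted for binding of the FITC-labelled lectin DBA (Dolichos biflorus agglutinin), a stain for the ureteric tree. Each group had 2 libraries, each made from the pooled RNA of 3 embryos, so the 2 libraries of a group are separate pools.

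Esrp1 and Esrp2 are splicing regulators of epithelial cells. Along the nephron, sodium-coupled carriers in the proximal tubule recover filtered phosphate, glucose, bicarbonate, sulfate and organic anions, the thick ascending limb of the loop of Henle takes up sodium, potassium and chloride through NKCC2 (Slc12a1), and the distal convoluted tubule takes up sodium chloride through NCC (Slc12a3). In the collecting duct, which grows from the ureteric bud, intercalated cells exchange chloride for bicarbonate through pendrin (Slc26a4) and AE1 (Slc4a1). All of these steps draw on the sodium gradient that the sodium potassium ATPase maintains or on the proton gradient of the vacuolar ATPase.

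The stretches just upstream of the start sites of Slc34a1, the carrier with the largest absolute difference in average level, and of Slc12a3, the carrier with the smallest p, are given first so that the proximal and distal genes can be seen next to each other. Both are the 250 bases before the RefSeq start on the plus strand of GRCm38.p6, at chr13:55399398-55399647 for Slc34a1 and chr8:94328958-94329207 for Slc12a3. RefSeq promoters were found for 61 of the 82 members, and the gene model of Slc34a1 in GENCODE begins further upstream. Capitals mark TATAAA, the core of a TATA box, which was searched on both strands of each stretch and of every other promoter in the reference.
Slc34a1: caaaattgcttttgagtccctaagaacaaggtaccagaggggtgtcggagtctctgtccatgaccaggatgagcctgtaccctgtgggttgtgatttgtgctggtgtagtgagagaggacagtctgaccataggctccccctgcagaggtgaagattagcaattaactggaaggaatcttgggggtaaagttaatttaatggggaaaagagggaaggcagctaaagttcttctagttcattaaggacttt
Slc12a3: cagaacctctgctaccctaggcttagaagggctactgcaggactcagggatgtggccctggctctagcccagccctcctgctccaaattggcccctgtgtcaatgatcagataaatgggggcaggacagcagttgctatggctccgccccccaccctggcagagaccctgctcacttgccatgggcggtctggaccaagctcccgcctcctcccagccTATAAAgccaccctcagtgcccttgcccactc
TATAAA stood 32 bases before the start of Slc12a3, on the plus strand, and was not among the 250 letters of Slc34a1. It was found in 2 of 17 proximal promoters, those of Slc13a2 and Slc26a1, in 12 of the 74 promoters of all members (16.2%) and in 12.4% of all 32851 promoters. These matches describe the letters only, and no binding was measured.

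Levels are in FPKM, fragments per kilobase of exon scaled to the mapped total, which takes gene length into account. Esrp1 was listed at 8.65 and 7.29 FPKM in DKO replicates 1 and 2, against 27.0 and 31.4 FPKM in control replicates 1 and 2. The depth of each library, read from the spacing of its lowest FPKM values and set to 1 for DKO replicate 1, was 1.09 for DKO replicate 2, 0.511 for control replicate 1 and 1.10 for control replicate 2, so that low values in control replicate 1 are the least precise. Mitochondrial transcripts held 18.6% to 19.1% of the FPKM sum in DKO cells and 23.2% to 25.5% in control cells. The 13 ureteric epithelial markers summed to 1544 and 1628 FPKM in DKO cells and 1244 and 1471 FPKM in control cells, and were present as labelled. Markers of nephron segments were present too, with 12 proximal tubule genes that summed to 348 and 304 FPKM in DKO cells and 527 and 631 FPKM in control cells. RNA of nephron tubules was thus measured besides that of ureteric epithelium.

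More carriers were lower than higher in DKO cells, but no single carrier passed the test across all genes. With all libraries, the proximal and distal list medians turned positive when carriers were set against markers of their own segment. The distal one was negative again without control replicate 2. Among the tested members, those lowest relative to the controls were NCC (Slc12a3), at 25.5% of its control average, SGLT5 (Slc5a10) at 31.5%, GLUT9 (Slc2a9) at 34.8%, pendrin (Slc26a4) at 35.0%, NHE9 (Slc9a9) at 36.3% and the dicarboxylate carrier NaDC3 (Slc13a3) at 36.8%. Summed over all members, DKO replicates 1 and 2 held 704 and 677 FPKM, against 872 and 931 FPKM in control replicates 1 and 2. In bulk samples fewer cells of a type and less RNA per cell cannot be told apart.

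Of the 82 members, 70 had a group average above 0.1 FPKM and entered the limma fit on log2(FPKM + 0.5) over 18884 genes. None was called lower or higher at a Benjamini-Hochberg adjusted p under 0.05 with at least a 2-fold ratio of averages, a rule that 0.0053% of all genes met on the lower side, 0.0159% on the higher side and 0.0212% in all. At an unadjusted p under 0.05, 15 members were lower in DKO cells and 0 were higher, while 7.35% of all genes were lower and 3.35% higher by that rule. Without DKO replicate 1, and again without DKO replicate 2, the lower count was 5. Both DKO libraries lay below both control libraries for 32 of the 70 members (45.7%), against 22.6% of all genes, and above both for 10 members (14.3%), against 20.8% of all genes. After each library was rescaled to the same FPKM sum, 73 members were tested. Of these, 10 were lower and 3 higher at that p, and 25 lay below and 15 above. The median log2 fold change of all genes was 0.11 on that scale, and the shares of all genes given here are not from it. With all values as deposited but a library left out, fewer values had to be separated, and both counts rose. Without DKO replicate 1, 42 members lay below both controls and 18 above. Without control replicate 2, 41 lay below the remaining control and 23 above it. At least 2-fold lower averages were seen for 10 members and at least 2-fold higher averages for 3, against 9.91% and 6.75% of all genes. The median log2 fold change, DKO over control, was -0.26 over the members and -0.01 over all genes tested. The smallest p that exact permutation of 4 such libraries allows for any gene is 0.333.

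**Figure D1:**
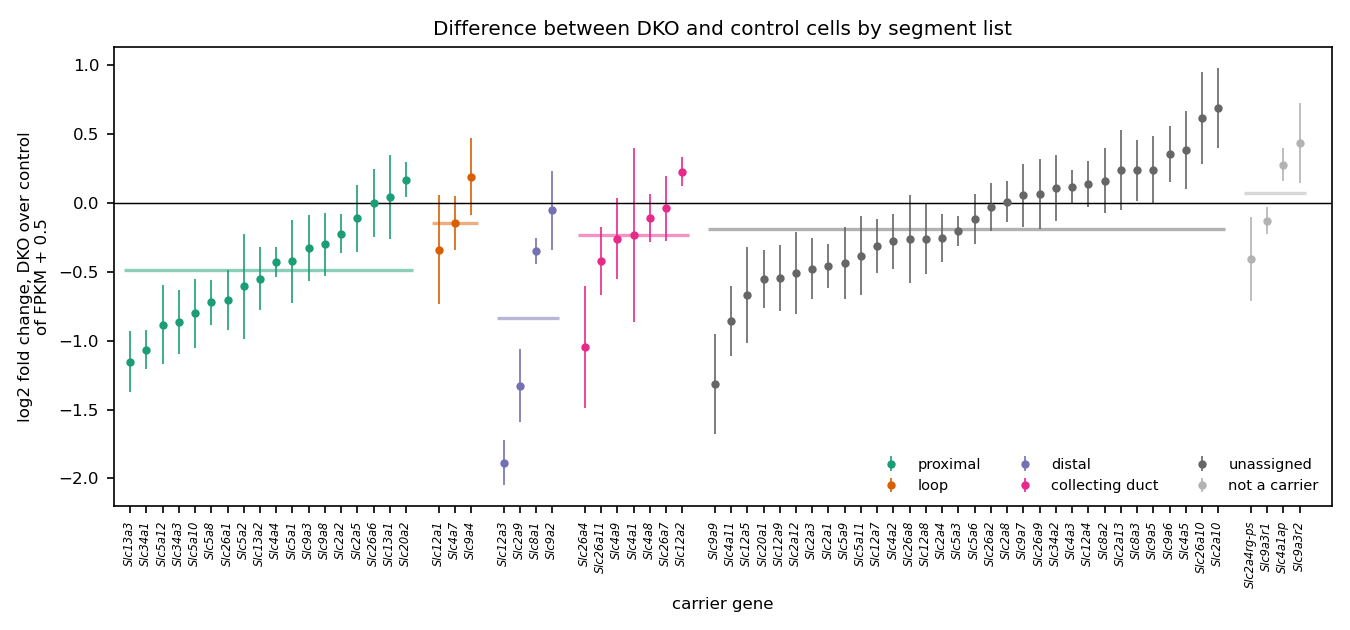
Log2 fold change of FPKM + 0.5, DKO over control, of 68 of the 70 tested members, grouped by segment. Points are limma estimates, vertical lines 1 standard error, and horizontal bars the medians over all tested members of a list, which lie at -0.49 for proximal, -0.15 for loop, -0.84 for distal, -0.24 for collecting duct and -0.19 for unassigned carriers. The collecting duct median is -0.0079 without control replicate 2 and the unassigned median -0.07 without control replicate 1.

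Among the proximal members, 12 of 18 lay below both controls and 1 above, and 8 were lower at an unadjusted p under 0.05, a count that was 4 without either DKO library. Of all genes, 22.6% lay below both controls, 20.8% above, and 7.35% were lower at that limma p. The adjusted p of the proximal members ranged upward from 0.365. The median log2 fold change was -0.49, while control replicate 1 differed from control replicate 2 by a median of -0.07. The summed level of the list was 142 and 126 FPKM in DKO cells, against 214 and 212 FPKM in control cells.

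A phosphate carrier was the most abundant member of the proximal list, and both brush-border phosphate carriers of the Slc34 family lay below the controls. NaPi-IIa (Slc34a1, chr13:55398187-55415592, plus strand), which recovers most of the filtered phosphate, was at 53.1 and 41.8 FPKM in DKO cells and at 97.2 and 101 FPKM in control cells. The groups did not overlap, and the averages were 47.5 ± 7.97 FPKM in DKO cells and 99.3 ± 2.91 FPKM in control cells (SD, n = 2 each). The log2 fold change was -1.07 with a standard error of 0.142 and a limma adjusted p of 0.365. NaPi-IIc (Slc34a3), a lower-abundance partner in the same membrane, was at 0.502 and 0.594 FPKM in DKO cells and at 1.46 and 1.37 FPKM in control cells, with a log2 fold change of -0.87. Pit2 (Slc20a2), a phosphate carrier of a different family, was the only proximal member with both DKO libraries above both controls, at 17.2 and 18.0 FPKM in DKO cells and 16.5 and 14.7 FPKM in control cells. That difference was small beside its error, with a log2 fold change of 0.17 and a standard error of 0.124.

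All 5 proximal sugar carriers had a log2 fold change below 0, and 2 of them overlapped between the groups. SGLT2 (Slc5a2), which takes up most of the filtered glucose in the early proximal tubule, was at 3.62 and 3.71 FPKM in DKO cells and at 8.66 and 3.90 FPKM in control cells, so that the difference in averages came mainly from control replicate 1. SGLT1 (Slc5a1), the high-affinity form of the late proximal tubule, was at 4.96 and 3.29 FPKM in DKO cells and at 4.55 and 6.90 FPKM in control cells, which overlap. SGLT5 (Slc5a10), a carrier of mannose and fructose, was low in every library, at 0.314 and 0.207 FPKM in DKO cells against 0.714 and 0.941 FPKM in control cells. GLUT2 (Slc2a2), through which glucose leaves the cell on the blood side, lay just below the controls, at 8.36 and 8.19 FPKM in DKO cells and 9.55 and 9.96 FPKM in control cells. The log2 fold change of GLUT2 was -0.22 with a standard error of 0.140, and that of SGLT5 was -0.80 with a standard error of 0.248. The fructose carrier GLUT5 (Slc2a5) had overlapping groups around 1 FPKM.

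Carriers of organic and sulfate anions included the proximal member with the lowest fold change on the log2(FPKM + 0.5) scale, while SGLT5 was lower by the ratio of averages. NaDC3 (Slc13a3), the blood-side carrier of dicarboxylates such as succinate, was at 1.22 and 1.27 FPKM in DKO cells and at 3.57 and 3.19 FPKM in control cells, with a log2 fold change of -1.15, a standard error of 0.221 and a limma adjusted p of 0.373. Its brush-border relative NaDC1 (Slc13a2) also lay below the controls, at 0.730 and 0.715 FPKM in DKO cells and 1.24 and 1.35 FPKM in control cells. Both lactate carriers did as well. SMCT1 (Slc5a8) was at 7.06 and 5.85 FPKM in DKO cells against 10.8 and 11.0 FPKM in control cells, and SMCT2 (Slc5a12) at 1.47 and 2.41 FPKM in DKO cells against 3.51 and 4.39 FPKM in control cells. Of the sulfate carriers, the blood-side exchanger Sat1 (Slc26a1) was at 2.04 and 2.21 FPKM in DKO cells and 3.45 and 4.12 FPKM in control cells, without overlap. The brush-border sulfate carrier NaS1 (Slc13a1) overlapped, at 1.38 and 0.942 FPKM in DKO cells and 0.837 and 1.41 FPKM in control cells, and so did the chloride, formate and oxalate exchanger Slc26a6, whose averages were 1.85 FPKM in DKO cells and 1.86 FPKM in control cells.

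Carriers for bicarbonate recovery showed small differences. NBCe1 (Slc4a4), which returns bicarbonate to the blood, was at 18.1 and 18.0 FPKM in DKO cells and at 23.7 and 25.2 FPKM in control cells, a log2 fold change of -0.43 with a standard error of 0.107. The apical sodium proton exchanger NHE3 (Slc9a3) was at 2.26 and 2.32 FPKM in DKO cells and 2.58 and 3.49 FPKM in control cells. NHE8 (Slc9a8), the exchanger known from the immature proximal tubule of rodents, was more abundant than NHE3 in all 4 libraries and overlapped between the groups, at 16.7 and 13.7 FPKM in DKO cells and 22.9 and 15.3 FPKM in control cells.

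**Figure D2:**
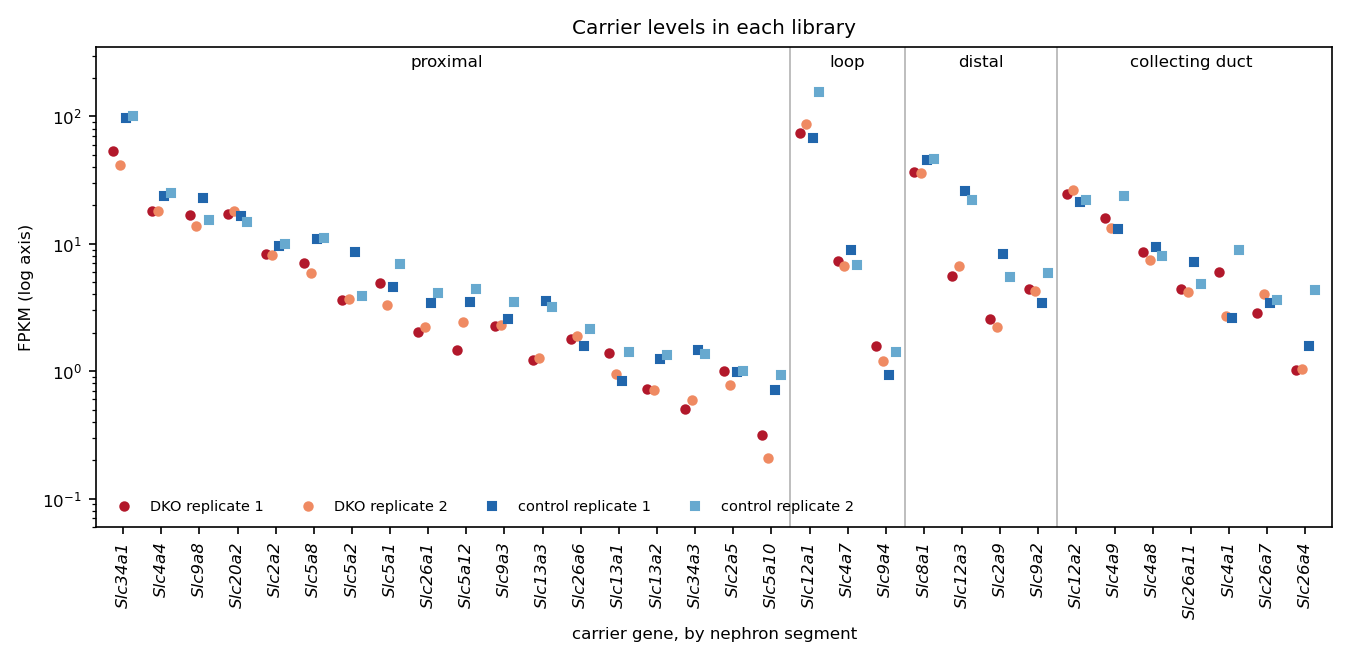
FPKM on a log axis of the 32 members assigned to a segment, each with DKO replicates 1 and 2 (circles) left of control replicates 1 and 2 (squares), ordered by mean level within a segment. Slc34a1 lies at 53.1 and 41.8 FPKM in DKO cells against 97.2 and 101 FPKM in control cells and Slc12a3 at 5.60 and 6.68 FPKM in DKO cells against 26.2 and 21.9 FPKM in control cells, while the groups overlap for Slc12a1.

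None of the 3 loop members separated the groups. NKCC2 (Slc12a1), the apical cotransporter that loop diuretics block, was the most abundant carrier of all members on average and was at 74.6 and 87.1 FPKM in DKO cells and at 67.7 and 154 FPKM in control cells. The controls stood further apart than the groups did, and the log2 fold change was -0.34 with all libraries and 0.25 without control replicate 2. The bicarbonate cotransporter NBCn1 (Slc4a7) was at 7.31 and 6.67 FPKM in DKO cells and 8.93 and 6.77 FPKM in control cells. The blood-side exchanger NHE4 (Slc9a4) was at 1.58 and 1.21 FPKM in DKO cells and 0.928 and 1.42 FPKM in control cells. The median log2 fold change of the 3 genes was -0.15, and 0.25 without control replicate 2. In both DKO libraries NKCC2 stood lower relative to uromodulin (Umod), a secreted protein of the same cells, than in both control libraries, with ratios of 3.08 and 2.67 in DKO cells and 3.73 and 4.08 in control cells. Relative to the potassium channel gene Kcnj1 it stood higher, with ratios of 5.51 and 5.53 in DKO cells and 2.95 and 4.68 in control cells, and relative to the summed loop markers the groups overlapped.

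The distal list held the clearest single difference. NCC (Slc12a3, chr8:94329201-94366214, plus strand), the thiazide-sensitive cotransporter, was at 5.60 and 6.68 FPKM in DKO cells and at 26.2 and 21.9 FPKM in control cells. Its averages were 6.14 ± 0.761 FPKM in DKO cells and 24.0 ± 3.01 FPKM in control cells (SD, n = 2 each), and both DKO values were far under both control values. The log2 fold change was -1.88 with a standard error of 0.165, and the limma adjusted p of 0.148 was the lowest among the members. Leaving out each library in turn gave log2 fold changes from -2.01 to -1.76. GLUT9 (Slc2a9), a urate carrier, was at 2.57 and 2.23 FPKM in DKO cells and 8.36 and 5.46 FPKM in control cells, with a log2 fold change of -1.33 and a standard error of 0.265. NCX1 (Slc8a1), the sodium calcium exchanger of the distal tubule, was at 36.3 and 35.7 FPKM in DKO cells and 45.4 and 46.6 FPKM in control cells, again without overlap but at 78.3% of the control average. NHE2 (Slc9a2) overlapped, at 4.39 and 4.26 FPKM in DKO cells and 3.43 and 5.89 FPKM in control cells. Of all genes, 22.6% lay below both controls and 7.35% were lower at an unadjusted limma p under 0.05. Of the 4 members 3 were below both controls and 3 were lower at an unadjusted p under 0.05, a count that was 1 without either DKO library.

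Collecting duct members, whose assigned segment grows from the ureteric bud, showed little that was shared. Of 7 members 2 lay below both controls, 1 lay above and 4 overlapped, shares of 28.6% and 14.3% beside 22.6% and 20.8% of all genes, and 0 had an unadjusted limma p under 0.05 in either direction. Pendrin (Slc26a4), the apical exchanger of beta-intercalated cells, was at 1.02 and 1.05 FPKM in DKO cells and at 1.59 and 4.32 FPKM in control cells. The controls themselves differed widely, and the log2 fold change of Slc26a4 was -1.05 with all libraries, -0.44 without control replicate 2 and -1.65 without control replicate 1. AE4 (Slc4a9), found in the same cells, was far more abundant and overlapped, at 15.9 and 13.4 FPKM in DKO cells and 13.1 and 23.5 FPKM in control cells. The ratio of Slc4a9 to Slc26a4 was 15.5 and 12.8 in DKO cells and 8.25 and 5.45 in control cells. AE1 (Slc4a1), of alpha-intercalated cells and of red cells, varied more within each group than between the groups, at 6.03 and 2.73 FPKM in DKO cells and 2.61 and 8.89 FPKM in control cells. The 7 tested erythroid markers summed to 275 and 297 FPKM in DKO cells and 656 and 382 FPKM in control cells. Their part in the Slc4a1 values was not tested.

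NKCC1 (Slc12a2), the blood-side relative of NKCC2, was the collecting duct member above both controls, at 24.6 and 26.4 FPKM in DKO cells and 21.3 and 22.2 FPKM in control cells, with a log2 fold change of 0.22 and a standard error of 0.107. The sulfate and chloride carrier Slc26a11 lay below, at 4.39 and 4.17 FPKM in DKO cells and 7.22 and 4.82 FPKM in control cells. The sodium-driven exchanger NDCBE (Slc4a8), at 8.68 and 7.40 FPKM in DKO cells and 9.40 and 8.07 FPKM in control cells, and the chloride exchanger Slc26a7, at 2.88 and 4.03 FPKM in DKO cells and 3.43 and 3.63 FPKM in control cells, both overlapped. The 6 intercalated cell markers had a median log2 fold change of -0.33, with 2 of 6 below both controls. The 9 principal cell markers had one of -0.15, with 3 of 9 below, beside 22.6% of all genes. Without control replicate 1 the intercalated median was -0.70 and the principal median -0.43, and without control replicate 2 they were -0.035 and 0.13.

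Shares within a library do not depend on how libraries were scaled to each other, so carriers of the same substrate were also set against their own sum. Of the sodium phosphate carriers (Slc20a1, Slc20a2, Slc34a1, Slc34a2 and Slc34a3), NaPi-IIa made up 57.6% and 53.0% in DKO cells and 65.0% and 71.6% in control cells. Pit2 (Slc20a2) made up 18.6% and 22.8% in DKO cells and 11.1% and 10.4% in control cells, and stood higher in both DKO libraries. The widespread carrier Pit1 (Slc20a1) kept overlapping shares, of 22.0% and 21.8% in DKO cells and 22.3% and 16.2% in control cells. Pit2 thus took a larger share of a lower total, since the 5 genes summed to 92.3 and 78.9 FPKM in DKO cells and 149.6 and 142 FPKM in control cells.

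Of the cation chloride cotransporters Slc12a1, Slc12a2 and Slc12a3, NCC made up 5.34% and 5.55% in DKO cells and 22.7% and 11.0% in control cells. NKCC1 made up 23.5% and 22.0% in DKO cells and 18.5% and 11.2% in control cells, and the shares of NKCC2 overlapped, at 71.2% and 72.5% in DKO cells and 58.8% and 77.8% in control cells. The difference in the NCC share was -11.4 percentage points, -5.58 without control replicate 1 and -17.3 without control replicate 2. For the sodium glucose pair, the share of SGLT1 (Slc5a1) was 57.8% and 46.9% in DKO cells and 34.4% and 63.9% in control cells, which overlap.

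**Figure D3:**
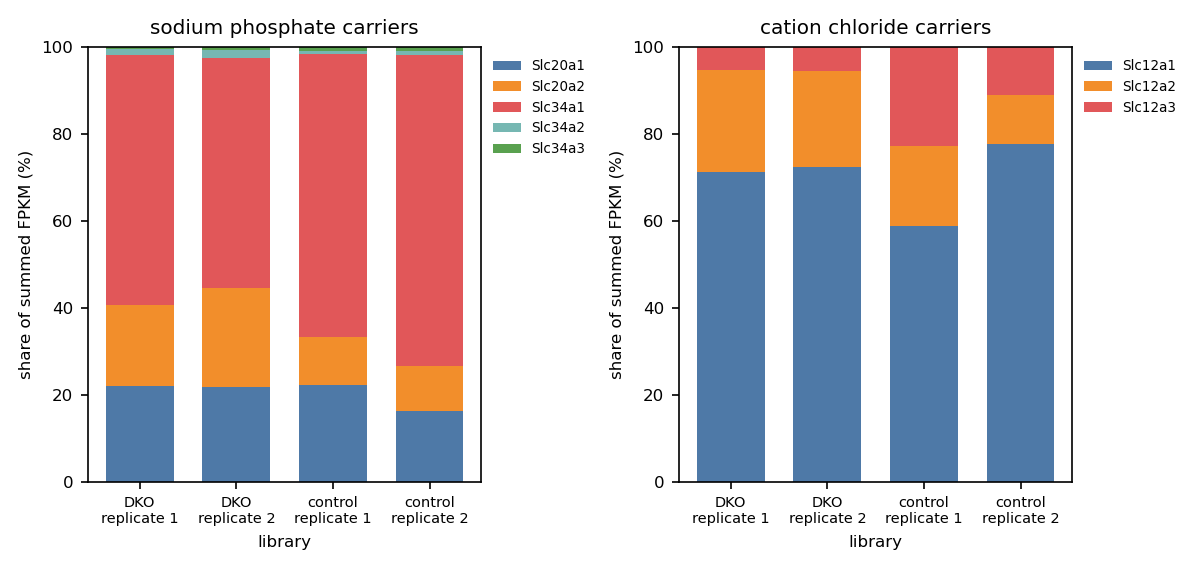
Share of summed FPKM (%) in each library, for the sodium phosphate carriers on the left and the cation chloride cotransporters on the right, with the DKO libraries left of the control libraries. Slc34a1 takes 57.6% and 53.0% in DKO libraries against 65.0% and 71.6% in control libraries, and Slc12a3 takes 5.34% and 5.55% in DKO libraries against 22.7% and 11.0% in control libraries.

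Of the 46 unassigned carriers, 34 were tested, with a median log2 fold change of -0.19. Of these 34, 14 lay below both controls (41.2%, beside 22.6% of all genes) and 7 above (20.6%, near the 20.8% of all genes). GLUT1 (Slc2a1), the glucose carrier of most cells, was the most abundant of them, at 42.7 and 40.6 FPKM in DKO cells and 49.6 and 66.4 FPKM in control cells, a log2 fold change of -0.46. Pit1 (Slc20a1) was at 20.3 and 17.2 FPKM in DKO cells and 33.3 and 22.9 FPKM in control cells. Neither pair overlapped, and both genes had an unadjusted p under 0.05 in limma. The inositol carrier SMIT (Slc5a3), which cells induce in salty surroundings, lay below by a smaller step, at 21.3 and 20.6 FPKM in DKO cells and 24.8 and 23.6 FPKM in control cells, and shares exonic bases on its strand with Mrps6. The other abundant members named here were AE2 (Slc4a2) and GLUT8 (Slc2a8), whose groups overlapped, and AE3 (Slc4a3), which lay above both controls at 16.4 and 17.2 FPKM in DKO cells and 16.1 and 14.8 FPKM in control cells.

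NHE9 (Slc9a9), a sodium proton exchanger of endosomes, had the lowest fold change of the unassigned carriers, at 7.38 and 5.91 FPKM in DKO cells and 24.7 and 11.9 FPKM in control cells. The log2 fold change was -1.32 with a standard error of 0.364, and -0.80 without control replicate 1. Macrophage markers moved with it: all 10 lay below both controls, beside 22.6% of all genes. They summed to 432 and 409 FPKM in DKO cells and 1724 and 816 FPKM in control cells. All 10 were higher in control replicate 1 than in control replicate 2, by a median log2 ratio of 1.05. Their median log2 fold change was -0.99 without control replicate 1 and -2.01 without control replicate 2. The ratio of Slc9a9 to the macrophage receptor gene Csf1r was 0.163 and 0.154 in DKO cells and 0.138 and 0.139 in control cells. The part of macrophage RNA in the Slc9a9 values was not tested. Slc4a11, a member related to borate transporters, was at 1.61 and 1.20 FPKM in DKO cells and 2.65 and 3.26 FPKM in control cells. In the other direction, GLUT10 (Slc2a10) was at 1.03 and 1.42 FPKM in DKO cells and 0.746 and 0.408 FPKM in control cells, a log2 fold change of 0.69 with a standard error of 0.290, and it was one of the 3 members with an average at least 2-fold higher. The others, Slc26a10 and Slc8a3, were under 0.6 FPKM in every library.

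The other 12 members had no group average above the minimum of 0.1 FPKM and were not tested. Of these, 3 were listed at 0 in all libraries, namely the colon exchanger DRA (Slc26a3), Slc9a10 and GLUT7 (Slc2a7), and the remaining 9 included the thyroid iodide carrier NIS (Slc5a5), the liver citrate carrier NaCT (Slc13a5), prestin of cochlear hair cells (Slc26a5) and the neuronal choline carrier CHT1 (Slc5a7). Among the 4 genes that are not carriers, the brush-border scaffold NHERF1 (Slc9a3r1) was at 56.2 and 52.1 FPKM in DKO cells and 60.2 and 58.4 FPKM in control cells, a log2 fold change of -0.13. NHERF2 (Slc9a3r2) overlapped, at 17.1 and 22.9 FPKM in DKO cells and 11.2 and 19.0 FPKM in control cells.

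By family, the median log2 fold change was lowest for Slc34 (-0.87, 3 tested), Slc13 (-0.55, 3 tested) and Slc5 (-0.44, 9 tested). In Slc5, 7 of 9 members lay below both controls and 0 above, beside 22.6% and 20.8% of all genes. The 7 include proximal members already counted, namely SGLT2, SGLT5, SMCT1 and SMCT2. The family median was nearest 0 for Slc26 (-0.04, 9 tested) and Slc9 (-0.06, 11 tested), which turned to 0.08 and 0.07 when each library was rescaled to the same FPKM sum. It was positive for Slc8 (0.16, 3 tested), also after that rescaling (0.29).

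The ion pumps, channels and regulators that work with these carriers were read from a separate list of 25 genes. Both DKO libraries lay below both controls for 17 of 25 and above for 1, and 11 were lower at an unadjusted p under 0.05, beside 22.6%, 20.8% and 7.35% of all genes by these rules. The beta subunit of the sodium potassium ATPase, Atp1b1, was at 297 and 299 FPKM in DKO cells and 401 and 553 FPKM in control cells, and its gamma subunit Fxyd2 at 165 and 186 FPKM in DKO cells and 262 and 373 FPKM in control cells. The potassium channels Kcnj1 (ROMK), which recycles potassium for NKCC2, and Kcnj16, a channel subunit of the blood side of the distal convoluted tubule, were separated too. Kcnj1 was at 13.5 and 15.7 FPKM in DKO cells and 23.0 and 33.0 FPKM in control cells, and Kcnj16 at 33.7 and 34.3 FPKM in DKO cells and 42.4 and 51.6 FPKM in control cells. Of the kinases upstream of NCC, Wnk1 was at 57.0 and 52.8 FPKM in DKO cells and 69.6 and 76.9 FPKM in control cells, while Stk39 overlapped. Hnf4a, a transcription factor of the proximal tubule, was at 24.1 and 20.9 FPKM in DKO cells and 28.4 and 29.5 FPKM in control cells.

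The medians of the proximal and distal tubule markers went in the same direction as those of the carriers of these segments. All 12 proximal tubule markers lay below both controls, with a median log2 fold change of -0.70, and 5 of 6 tested distal tubule markers did, with a median of -1.09 that was -1.57 without control replicate 1 and -0.38 without control replicate 2, while the distal marker Pvalb was listed at 0 in 3 libraries. Gatm, an enzyme of creatine synthesis in the proximal tubule, was the single gene of the table called lower, at 21.7 and 20.9 FPKM in DKO cells and 74.3 and 78.5 FPKM in control cells with a limma adjusted p of 0.0431, and 0 genes were called with any 1 library left out. It was not called either without the filter, after TPM or median-ratio scaling, without the variance trend or with a robust variance, each of which called 0 genes lower. The loop list had 3 of 8 below and a median of -0.41, which was -0.73 without control replicate 1 and -0.096 without control replicate 2. In that last setting the loop carriers had a median of 0.25. Of the 8 loop markers, 3 had a log2 fold change above 0 with all libraries. Among other cells, all 9 stromal markers lay above both controls and summed to 192 and 326 FPKM in DKO cells against 84.5 and 129 FPKM in control cells, and 8 endothelial markers summed to 128 and 164 FPKM in DKO cells against 63.3 and 115 FPKM in control cells. Ureteric markers were above both controls for 7 of 13 and below for 1. Their median log2 fold change was 0.12, beside -0.24 for the collecting duct carriers. Of all genes, 20.8% lay above both controls and 22.6% below.

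Set against the summed markers of their own segment, an alternative chosen after the data had been seen, the proximal carriers had a median log2 difference, DKO minus control, of 0.26, and 8 of 18 lay above both controls and 4 below. The 4 were Slc34a1 (-0.25), Slc13a3 (-0.61), Slc34a3 (-0.54) and Slc5a10 (-0.86). Pit2 (Slc20a2), at 1.00, and GLUT2 (Slc2a2), at 0.59, were among those above. Only segment members were scaled in this way, so these counts have no share of all genes beside them. A single gene held most of the distal marker sum, at 144 and 215 of 185 and 260 FPKM in DKO cells. In control cells it was at 310 and 561 of 377 and 676 FPKM. In the distal list, NCC lay below both controls on this scale, at -0.77, a difference that was -0.22 without control replicate 1 and -1.32 without control replicate 2. The ratio of NCC to the distal marker Kl overlapped, at 0.421 and 0.558 in DKO cells and 0.916 and 0.513 in control cells. NCX1 (0.85) and NHE2 (1.15) stood above, and the list median was 0.28. Without control replicate 2 the distal differences were 0.45 for NCX1, -1.32 for NCC, -1.02 for GLUT9 and 1.11 for NHE2. Their median was then negative. The collecting duct list was set against principal and intercalated cell markers together, and principal cell markers held most of that sum. There Slc26a4 (-1.46) and Slc4a9 (-0.38) lay below both controls. Relative to the intercalated cell gene Foxi1 alone, Slc4a9 overlapped, at 0.806 and 0.779 in DKO cells and 0.724 and 0.983 in control cells. Slc26a4 stayed lower, at 0.0518 and 0.0610 in DKO cells and 0.0877 and 0.181 in control cells. The direction of the proximal and distal medians thus depended on whether carriers were compared per library or per segment marker. That of the distal median per segment marker also depended on control replicate 2. The part of cell composition in the carrier differences was not tested.

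**Figure D4:**
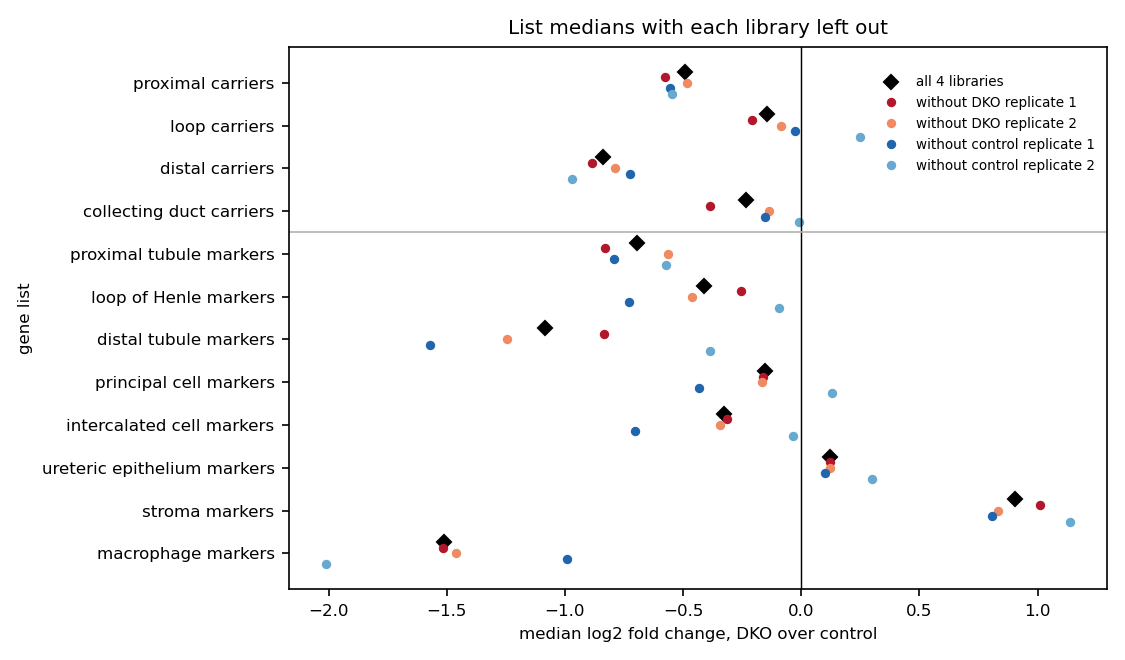
Median log2 fold change, DKO over control, of carrier and marker lists, with all 4 libraries (diamonds) and with each library left out (circles). Proximal carriers stay near -0.49 and distal carriers near -0.84 while loop carriers reach 0.25 without control replicate 2.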

How the data were processed

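Poly(A) RNA of sorted E18.5 kidney cells was sequenced in 4 strand-specific libraries. The authors mapped reads to mm10 with Ensembl release 72 and deposited FPKM per gene and library, with TopHat 1.4.1 and Cuffdiff 2.2.1 listed in the submitters' processing notes. The scaling between libraries is not given in the sources. The table holds 38201 genes, and 2 empty lines were left out.

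FPKM are not counts, so limma 3.58.1 in R 4.3.3 was run on log2(FPKM + 0.5) with a variance trend over 18884 genes, those whose larger group average exceeded 0.1 FPKM. Tests were two-sided, with Benjamini-Hochberg adjustment over all genes. The fit was tested on simulated data. Fold changes on this scale understate those of low genes, and a gene listed at 0 may be one whose estimate failed. Relative depth was read from values up to 0.3 FPKM. Tables and figures were made in Python 3.11.15 with pandas 2.3.3 and matplotlib 3.10.9. Gene positions are those of GENCODE M21 (82 of 82 identifiers matched), and promoters those of RefSeq. Some members share exonic bases on their strand with another gene, which FPKM do not resolve. A few items of the table are left out by name here, and counts and medians include them.

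The members, segment lists and 11 marker lists were chosen with earlier results of these data known. Named genes were all segment members, the 10 others with the highest mean FPKM, and the others with an unadjusted p under 0.05 or at least a 2-fold difference with 1 FPKM in a group. Other members were named after their values were seen. The alternatives changed the pseudocount (0.1 or 1), the filter (none or 1 FPKM), the scaling of libraries (TPM or median ratio), the variance estimate, the replicate block and, in turn, the libraries included.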

Additional observations from a re-analysis of the deposited data

How the results depend on the processing

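No member was called under any of the 13 alternatives, in which the lowest adjusted p of a named member was 0.0702 (Slc12a3, replicate block), and 31 of 43 named members kept their sign under those alternatives. Depth limits low members in control replicate 1, and 2 libraries a group limit every test. The number of members lower at an unadjusted p under 0.05 (15) ranged between 5 and 20 with a library left out, that of proximal members (8) between 4 and 8, and that of distal members (3) between 1 and 3. After TPM scaling 10 of 73 tested members were lower by that rule, and 25 lay below both controls and 15 above. The number higher (0) was 3 after TPM scaling, 1 without a variance trend, and between 0 and 2 with a library left out. With a library left out, fewer values had to be separated. The number above the controls (10) then ranged between 11 and 23, and the number below (32) between 36 and 42. TPM scaling moved the median over all genes to 0.11 and that over the members to -0.15. With all libraries, medians scaled to the marker sum were 0.26 for proximal and 0.28 for distal members. The distal one was negative without control replicate 2. In the reported fit, the loop median ranged between -0.21 and 0.25 with a library left out. The causes of these differences were not tested.

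Under the 13 alternatives signs turned for 12 named members, none of them with an unadjusted p under 0.05 in the reported fit. Scaling to the marker sum, which was chosen after the data were seen, turned 12 of the 32 segment members to higher values, among them 3 with such a p, Slc4a4 (0.39), Slc5a8 (0.06) and Slc8a1 (0.85). Slc26a6 was at 0.0019 with a pseudocount of 0.1, 0.11 after TPM scaling and 0.015 after median-ratio scaling. After TPM scaling Slc9a2 was at 0.067, Slc4a8 at 0.013, Slc26a7 at 0.076 and Slc9a3r1 at 0.0011. With a library left out, values ranged between -0.17 and 0.17 for Slc26a6, -0.21 and 0.30 for Slc13a1, -0.93 and 0.25 for Slc12a1, -0.33 and 0.041 for Slc4a7, -0.027 and 0.40 for Slc9a4, -0.41 and 0.30 for Slc9a2, -0.67 and 0.15 for Slc4a9, -1.03 and 0.56 for Slc4a1, -0.25 and 0.17 for Slc26a7, and -0.14 and 0.16 for Slc2a8.

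Libraries of both groups carry replicate numbers, and deviations from the group means correlated at 0.105 over genes between DKO replicate 1 and control replicate 1. With 2 pairs the libraries share only a number. With the replicate number as a block, 18 members were lower and 1 higher at an unadjusted p under 0.05, and 16 genes in all were called, against 4 without the block.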
